A study of Mus musculus with 14 samples.

Results

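Immediate early genes are transcribed within minutes of a growth factor, cytokine or stress signal, without new protein synthesis, and MAPK feedback genes are switched on by the same ERK signal and then dampen it. The 38 genes described here were chosen by symbol from the 24411 genes counted in each table, with no cut on measured values but with earlier results of these data known. By role they are 8 subunits of the AP-1 transcription factor and its small Maf partner (Fos, Fosb, Fosl1, Fosl2, Jun, Junb, Jund, Maff), 3 zinc finger factors of the EGR family, 3 IER proteins, 4 Krüppel-like factors (KLF), 3 NR4A orphan nuclear receptors and 4 growth arrest and Polo-like kinase genes (Plk2, Plk3, Gadd45b, Btg2). The feedback arm holds 5 dual-specificity phosphatases (DUSP), which remove phosphate from MAP kinases, and 5 Sprouty and SPRED proteins, which restrain Ras and Raf. The rest are the ERK-induced ETS factors Etv4 and Etv5, and Srf, the serum response factor that binds the promoters of many immediate early genes.

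The cells were MC-38, a mouse colon cancer line, sequenced as 14 bulk RNA libraries in 6 groups. In culture, 3 libraries came from cells exposed to NET chromatin and 3 from untreated cells; NETs, or neutrophil extracellular traps, are webs of DNA and granule proteins cast out by neutrophils. GFP-expressing MC-38 cells were flow-sorted on day 30 from lung tumours, with 2 libraries from each of 4 host groups. These hosts were PAD4 knockout (KO) mice with laparotomy on days 0 and 10, PAD4 KO mice without surgery, wild-type (WT) mice with laparotomy on the same days, and WT mice without surgery; PAD4 is the histone-citrullinating enzyme of NET release, and the cancer cells were wild type in every group. The labels state neither the dose and duration of NET exposure nor the age and strain of the mice. They also do not say that replicates are separate cultures or animals, so each p-value reflects only the variation among these libraries, part of which may be technical. Without a second line, all results are those of 1 cell line.

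Gene counts summed to 6.39 to 20.6 M in culture libraries and to 10.8 to 31.3 M in tumour libraries. Levels are CPM, counts scaled to library size with TMM factors, and a call is an adjusted p below 0.05 in edgeR's quasi-likelihood test across all genes of a fit. The summed level of 8 epithelial and colon markers (Epcam, keratins, Cdh1, Vil1, Cdx2 and others) was 0.979 to 1.85 CPM in NET cultures, 0.837 to 1.71 CPM in control cultures and 1.86 to 32.0 CPM in tumour libraries, so the defining epithelial markers of a colon cancer line were nearly absent. Padi4, the gene of PAD4, stood at 2.08 to 5.47 CPM in the KO host libraries, at 30.7 and 30.3 CPM in the WT laparotomy libraries and at 3.20 and 7.49 CPM in the WT control libraries, and was at 64.4 to 72.1 CPM in culture; because the sorted cells carry their own Padi4, these levels do not check the host labels. All 10 pan-leukocyte markers were detected in the 8 tumour libraries. Their sum was 932 CPM in WT control replicate 2 and 85.6 to 185 CPM in the other 7, and the same library was highest for macrophage, neutrophil, lymphocyte, lung epithelium and endothelium markers. Results that rest on that library are given with and without it; leaving out 1 of 2 libraries of a tumour group leaves a single library there, whose spread is then assumed to be that of the other groups.

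Promoters of 30 of the 38 genes were in the RefSeq table for GRCm38.p6, and the 250 bases before each start were searched on both strands. The CArG box, which serum response factor binds, was found in 6 of 37 member promoters (16.2%), against 1.47% of all 32817 promoters; 4 of those 6 are overlapping or neighbouring entries of Egr2, so the count stands for 3 genes, Egr2, Dusp5 and Srf. TGACG, the core of a cyclic AMP response element, was found for 17 genes (54.1% of member promoters, 17.7% of all), and its full palindrome TGACGTCA, which contains TGACG, for Maff, Plk2, Btg2 and Dusp1 (10.8% against 1.55%). The EGR site GCGGGGGCG was found in 18.9% of member promoters against 2.57% of all. The ETS motif CCGGAAG was found in 2.7% against 6.9% of all, TATAAA in 10.8% against 12.4%, and the AP-1 site TGANTCA in none of the 37, against 6.75% of all. The 150 bases before the start are shown for genes on which the results below turn and for Srf, as examples of each arrangement. Capitals mark CArG boxes, TGACG or its complement CGTCA, the palindrome, and TATAAA or its complement; a match is a description of these letters only.
Fos, chr12:85473740-85473889, plus strand: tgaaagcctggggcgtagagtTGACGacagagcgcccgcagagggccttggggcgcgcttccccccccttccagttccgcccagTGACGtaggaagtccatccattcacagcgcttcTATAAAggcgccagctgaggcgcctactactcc
Egr2, chr10:67537720-67537869, plus strand: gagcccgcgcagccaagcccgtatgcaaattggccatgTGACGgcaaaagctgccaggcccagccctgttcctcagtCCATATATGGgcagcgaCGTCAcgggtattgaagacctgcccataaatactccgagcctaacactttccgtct
Dusp5, chr19:53528995-53529144, plus strand: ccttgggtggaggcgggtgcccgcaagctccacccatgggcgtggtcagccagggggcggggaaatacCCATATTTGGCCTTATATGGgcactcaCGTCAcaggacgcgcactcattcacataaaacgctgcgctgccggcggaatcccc
Srf, chr17:46556163-46556312, minus strand: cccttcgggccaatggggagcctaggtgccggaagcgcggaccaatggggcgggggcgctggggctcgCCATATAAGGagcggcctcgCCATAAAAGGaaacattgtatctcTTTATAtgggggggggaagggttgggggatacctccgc
Dusp1, chr17:26508473-26508622, minus strand: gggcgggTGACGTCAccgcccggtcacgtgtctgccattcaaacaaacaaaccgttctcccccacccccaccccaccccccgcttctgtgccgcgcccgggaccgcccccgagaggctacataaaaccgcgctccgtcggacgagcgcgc
Plk2, chr13:110394894-110395043, plus strand: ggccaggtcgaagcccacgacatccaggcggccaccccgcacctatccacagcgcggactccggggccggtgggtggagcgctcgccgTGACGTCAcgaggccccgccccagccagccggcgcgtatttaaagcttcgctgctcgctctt
Dusp5 and Srf each hold 2 CArG boxes in this window, adjoining in Dusp5, and Egr2 holds 1 beside a TGACG on the other strand. Fos has 2 TGACG cores and a TATAAA in the shown stretch, and no CArG box within the 250 bases searched.

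The first comparison asks how these genes stood in cells given NET chromatin. They did not move as a block: of 35 genes with enough counts to test, 13 were higher, 9 lower and 13 did not pass. The background was large, since 54.1% of the 11753 genes tested were called, 26.3% higher and 27.8% lower, and of the members 37.1% were higher and 25.7% lower. Over the members the log2 fold change had a median of 0.13, against 0.00 over all genes. With library totals in place of TMM factors the median of all genes shifted to -0.16, the member split was 10 higher and 13 lower, and 14% of all genes were called higher and 40.6% lower. Egr2, Egr3 and Dusp5 were too low to test, with 12, 8 and 37 reads in all over the NET cultures and 11, 25 and 31 reads over the control cultures.

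**Figure D1:**
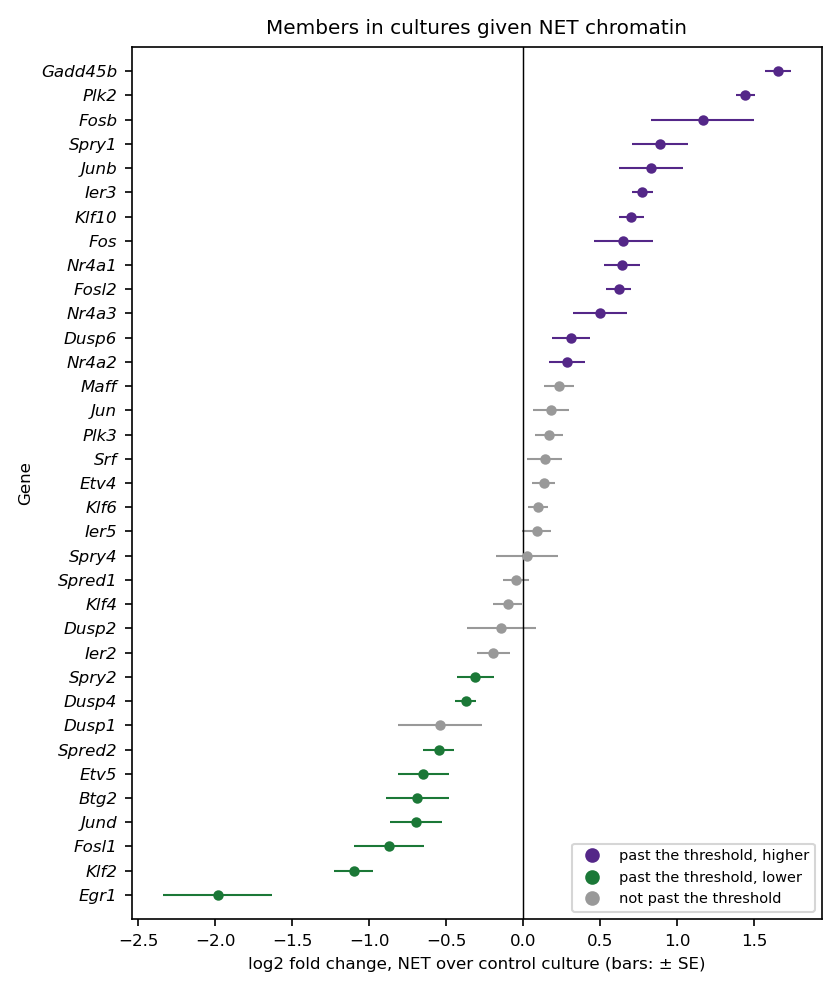
Log2 fold change of the 35 tested members in NET cultures over control cultures (n = 3 each); points are estimates and bars ± SE. Gadd45b (1.65) and Plk2 (1.44) lie farthest to the right and Egr1 (-1.99) farthest to the left, with 13 genes grey because they did not pass the threshold.

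Among growth arrest and stress genes, Plk2, a Polo-like kinase induced by stress and p53, stood at 659, 628 and 628 CPM in NET cultures, against 237, 227 and 239 CPM in control cultures. Gadd45b, a stress protein that binds the p38 and JNK activating kinases, had 110, 128 and 120 CPM with NET chromatin, against 34.0, 40.7 and 38.4 CPM without. In both genes every NET library lay above every control, with little spread inside a group. The log2 fold changes were 1.44 ± 0.06 (SE, adjusted p = 2.68e-11) for Plk2 and 1.65 ± 0.08 (adjusted p = 2.32e-10) for Gadd45b by edgeR's quasi-likelihood test with Benjamini-Hochberg adjustment. Btg2, an antiproliferative p53 target, moved the other way, at 2.57, 2.70 and 4.44 CPM in NET cultures, against 6.22, 5.73 and 5.40 CPM in controls. It fell by 0.69 ± 0.21 on the log2 scale (adjusted p = 0.00947, edgeR). Plk3 was at 45.8 to 54.4 CPM with NET chromatin and 38.8 to 47.8 CPM without, and did not pass.

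Of the 8 AP-1 genes, 4 rose, 2 fell and 2 did not pass. Fosl2, a Fos-related subunit, had 69.3, 64.5 and 65.9 CPM in NET cultures, against 39.7, 45.5 and 44.5 CPM in controls, and Junb had 130, 104 and 136 CPM, against 47.4, 84.6 and 76.7 CPM. Junb rose by 0.83 ± 0.21 and Fosl2 by 0.62 ± 0.08 (log2, adjusted p = 0.0126 and 5.85e-06, edgeR). Fos itself was scarce in culture: 4.16, 4.04 and 4.54 CPM with NET chromatin, against 2.79, 2.75 and 2.74 CPM without, from 147 reads over the NET and 97 reads over the control libraries. Its groups did not overlap, and its log2 fold change was 0.65 ± 0.19 (adjusted p = 0.00875, edgeR). Fosb, at 1.18 to 2.65 CPM with NET chromatin and 0.536 to 1.33 CPM without, rose by 1.17 ± 0.34, although its lowest NET library fell inside the control range. Without NET replicate 3, Fos (0.58, adjusted p = 0.0749) and Fosb (0.83, adjusted p = 0.141) were not called, and without NET replicate 1, Junb was not (0.80, adjusted p = 0.0907, all edgeR). Jund, the subunit that is least inducible in most cells, had 36.0, 23.4 and 33.5 CPM in NET cultures, against 37.3, 57.0 and 58.4 CPM in controls, and fell by 0.70 ± 0.17 on the log2 scale (adjusted p = 0.00418, edgeR). Jun (51.2 to 73.3 CPM with NET chromatin, 46.8 to 61.4 CPM without) and Maff (25.1 to 27.5 and 21.2 to 23.9 CPM) did not pass; Maff's groups did not overlap, and its adjusted p was 0.0534 (edgeR).

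Fosl1, a Fos-related subunit whose gene is a known ERK target, needs its own account, because the unstranded count column used for the tests held only 14.4% of the reads that the strand-specific column gave it, against 96.5 to 102% for the other members. On the strand-specific column it had 15.1, 9.41 and 12.1 CPM in NET cultures, against 28.05, 26.8 and 23.9 CPM in controls. It fell in the unstranded fit (log2 fold change -0.87 ± 0.23) and with the strand-specific counts (-1.08). Per kilobase of exon and on the strand-specific counts, Fosl1 made up a median of 39.7% of the Fos-family transcripts in NET cultures and 68.7% in controls, and Fosl2 made up 45.0% in NET cultures and 24.2% in controls. Within the Jun family the share of Junb was 56.0 to 60.1% with NET chromatin and 35.7 to 40.9% without, and that of Jund 18.6 to 21.3% and 37.97 to 40.0%. The largest Fos-family share thus lay with Fosl2 in the median NET culture and with Fosl1 in the median control, and the Jun-family shares of Junb and Jund did not overlap between the groups.

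Egr1, the EGR factor most quickly induced by serum, was at the edge of detection in culture, with 0.857, 0.337 and 0.408 CPM in NET cultures, against 1.71, 2.04 and 2.28 CPM in controls. It fell by 1.99 ± 0.35 on the log2 scale (adjusted p = 0.000162, edgeR), the largest fall among the members. Ier3, an ERK-binding survival factor and the most abundant member per kilobase of exon in culture, stood at 995, 1107 and 1085 CPM in NET cultures, against 603, 668 and 595 CPM in controls, a rise of 0.77 ± 0.07 (log2, adjusted p = 1.32e-07, edgeR). Ier2 and Ier5 did not pass (22.1 to 24.4 and 29.8 to 35.4 CPM with NET chromatin, 22.6 to 28.3 and 29.0 to 30.9 CPM without).

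The KLF factors parted. Klf10, a TGF-beta-inducible repressor, had 168, 131 and 148 CPM in NET cultures, against 88.8, 87.1 and 99.2 CPM in controls, and Klf2, a target of MEK5-ERK5 signalling, had 12.1, 10.4 and 8.67 CPM, against 21.1, 21.6 and 22.0 CPM. Klf10 rose by 0.70 ± 0.08 and Klf2 fell, with a log2 fold change of -1.10 ± 0.13 (adjusted p = 2.83e-06 and 1.96e-06, edgeR), while Klf4 and Klf6 did not pass. All 3 NR4A receptors were called higher, at modest size. Nr4a1 had 19.2, 19.2 and 18.6 CPM with NET chromatin, against 10.6, 13.7 and 11.9 CPM without (0.64 ± 0.12, log2). The log2 fold changes of Nr4a3 (0.50 ± 0.18) and Nr4a2 (0.28 ± 0.12) were smaller, and their calls were lost under most alternatives.

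In the feedback arm, the ETS factors and Srf the changes were small and mixed. Dusp4, a nuclear phosphatase of ERK and JNK, had 245, 225 and 252 CPM in NET cultures, against 288, 332 and 316 CPM in controls (-0.37 ± 0.07, log2, adjusted p = 0.000207, edgeR). Dusp6, the cytoplasmic ERK phosphatase, had 13.5, 12.5 and 13.98 CPM, against 10.2, 10.2 and 12.03 CPM (0.31 ± 0.12, adjusted p = 0.0419, edgeR). Neither pair of groups overlapped, but the Dusp6 call was lost in most alternatives. Spry1 rose (0.89 ± 0.18; 6.38 to 7.22 CPM with NET chromatin, 3.21 to 4.40 CPM without), and Spred2 (-0.55 ± 0.10; 24.9 to 29.0 and 34.2 to 42.6 CPM), Spry2 (-0.31 ± 0.12) and Etv5 (-0.65 ± 0.17; 5.56 to 11.2 and 13.3 to 15.9 CPM) fell. Dusp1, Dusp2, Spry4, Spred1, Etv4 and Srf did not pass. Pan-leukocyte markers summed to 15.1 to 17.2 CPM in NET cultures and 5.04 to 6.17 CPM in controls. Neutrophil markers summed to 21.3 to 23.6 and 9.18 to 9.54 CPM, and macrophage markers to 143 to 168 and 80.8 to 100 CPM. The rise was not limited to these lists. Fibroblast markers summed to 136 to 151 CPM in NET cultures and 96.1 to 97.8 CPM in controls, and lymphocyte markers to 1.84 to 2.86 and 0.750 to 1.22 CPM. Endothelium sums were also higher in every NET culture than in every control. All 3 tested fibroblast markers and 2 of 3 tested endothelium markers were called higher. Lung epithelium sums overlapped (14.9 to 17.7 and 15.4 to 18.7 CPM). The part of RNA from such cell types in these differences was not tested.

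The other genes of the pathway were read from lists of its kinases, targets and related immediate early genes. Of 27 tested Ras-ERK cascade genes, 6 were higher with NET chromatin and 10 lower. The ETS factor gene Elk4 (log2 fold change 0.65), the kinase gene Map2k1, which encodes MEK1 (0.30), and the adaptor gene Grb2 (0.26) rose, and the docking protein gene Gab1 (-1.03), the S6 kinase gene Rps6ka3 (-0.67) and the scaffold gene Ksr1 (-1.31) fell. Of 21 other immediate early genes, 11 rose and 5 fell. Cyr61, a matricellular protein gene, had the smallest p among the rises, at 194, 175 and 199 CPM in NET cultures, against 47.0, 52.8 and 53.2 CPM in controls (log2 fold change 1.89), followed by Per1 (0.91) and Tiparp (0.94), while Rhob (-1.19), Klf9 (-1.03) and Trib1 (-0.91) fell. Of 14 serum response factor and MRTF genes 8 rose and 3 fell, among them the actin cytoskeleton genes Tpm4 (0.53), Flna (0.31) and Actb (0.23) on the rising side and Mkl2 (-0.54), Filip1l (-0.53) and Mkl1 (-0.71) on the falling side; Mkl1 and Mkl2 encode the MRTF cofactors themselves. Other ERK output genes gave 5 higher and 3 lower of 13, with Il1rl1, the interleukin-33 receptor gene, at 2.34, Phlda1 at 0.74 and Dusp7 at 0.52, and Sh2b3 at -1.01, Ccnd1 at -0.59 and Spred3 at -0.46. The JNK and p38 list gave 3 higher and 6 lower of 16.

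The second comparison sets the 8 tumour libraries against the 3 control cultures, all on 1 scale, and here the members stood far apart from the culture state. Of 38 members, 28 were higher in tumour cells, 5 lower and 5 did not pass; over all 14421 genes tested, 38.6% were called higher and 34.7% lower. Over the members the log2 fold change had a median of 1.74, against 0.06 over all genes. The sum of the members was 6345 to 11758 CPM in tumour libraries and 2121 to 2366 CPM in control cultures. Growth in the lung, tissue handling and flow sorting were applied to every tumour library and to no culture library, so they cannot be told apart.

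**Figure D2:**
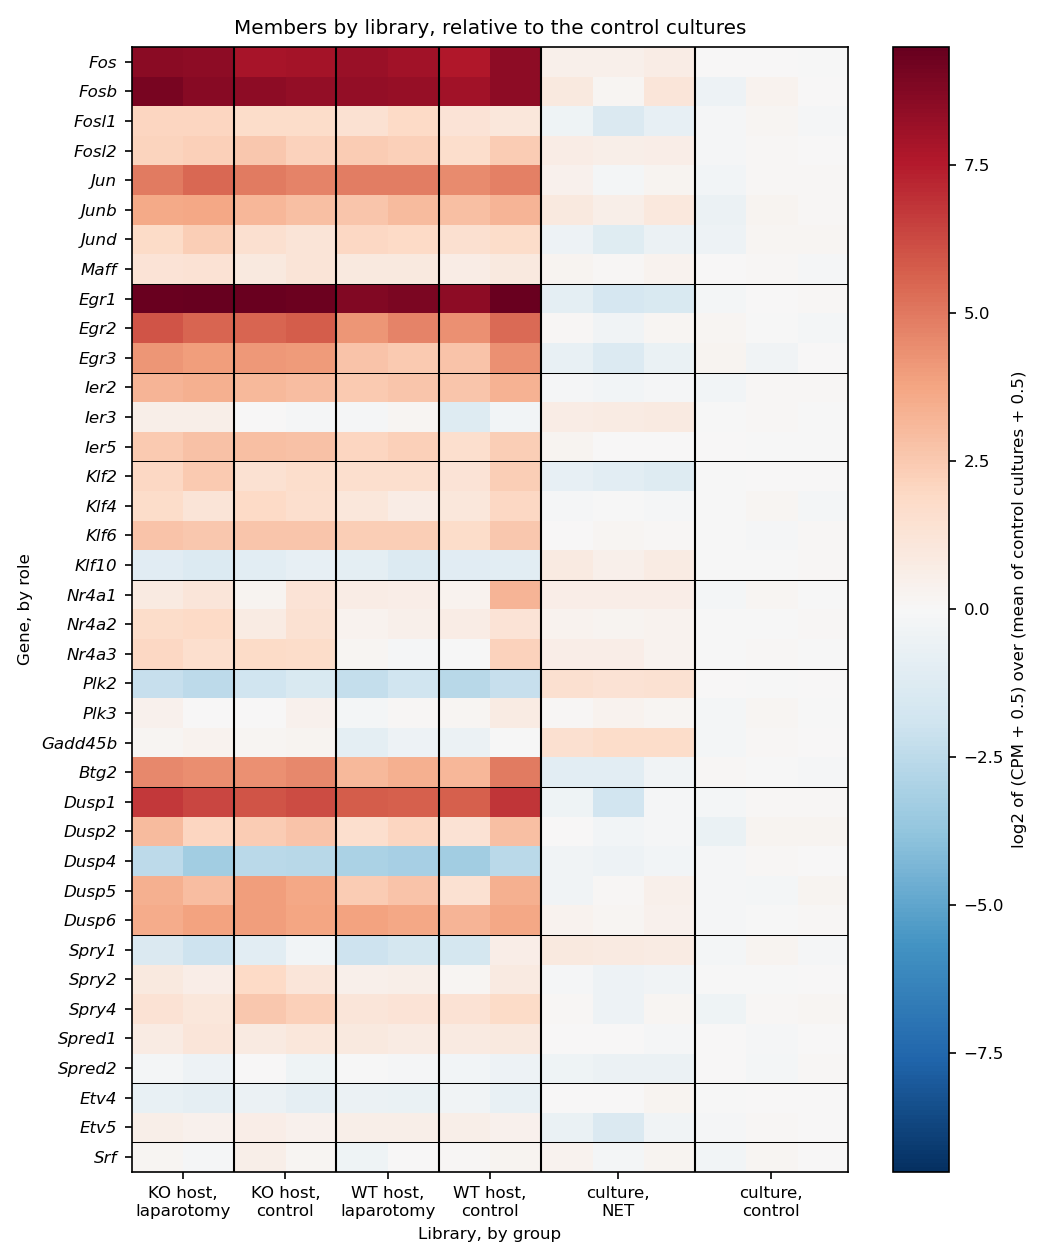
Level of each of the 38 members (rows, by role) in each library (columns, by group), as log2 of CPM plus 0.5 over the mean of the control cultures plus 0.5, from unstranded counts. Fos, Fosb and Egr1 are deep red in all 8 tumour libraries, Plk2 and Dusp4 are blue there, and the culture columns stay pale.

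The classical serum-induced factors led. Fos stood at 658 CPM in the lowest tumour library, 911 CPM at the median and 1265 CPM in the highest, against 2.80 to 2.84 CPM in control cultures. Egr1 had 949, 1643 and 2054 CPM (lowest, median, highest) in tumours, against 1.75 to 2.33 CPM, and Fosb had 374, 507 and 750 CPM, against 0.547 to 1.38 CPM. For all 3 genes the groups lay far apart, while the highest tumour library was only 1.92 to 2.16 times the lowest. The log2 fold changes were 9.47 ± 0.26 for Egr1, 8.98 ± 0.24 for Fosb and 8.38 ± 0.22 for Fos (SE; adjusted p = 8.54e-12, 4.82e-12 and 5.54e-12, edgeR), which placed Egr1 79th, Fosb 114th and Fos 169th from the top among 14421 genes. Fos lies on chromosome 12 (85473890 to 85477273) and Fosb on chromosome 7 (19302696 to 19310051; GRCm38).

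The rest of the AP-1 and EGR genes followed at smaller size. Jun had 1276, 1702 and 2499.9 CPM in tumours, against 47.8 to 62.6 CPM in control cultures (4.90 ± 0.18), and Junb had 435, 604 and 896 CPM, against 48.4 to 87.2 CPM (3.13 ± 0.20). Egr2 (6.53 ± 0.36) and Egr3 (4.32 ± 0.42), which were near 0 in culture, reached 15.1 to 50.9 and 6.55 to 24.6 CPM in tumours. Fosl2 (2.27 ± 0.15), Jund (1.77 ± 0.17) and Maff (1.07 ± 0.10) were also called. Fosl1 reached 85.3 to 155 CPM in tumours by strand-specific counts, against 23.9 to 28.05 CPM in control cultures, each on the scale of its own fit. All 11 genes of the AP-1 and EGR lists were thus higher in tumour cells. Fos made up a median of 71.3% of the Fos family in tumours, against 6.16% in control cultures, where Fosl1 made up 68.7% (10.6% in tumours).

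**Figure D3:**
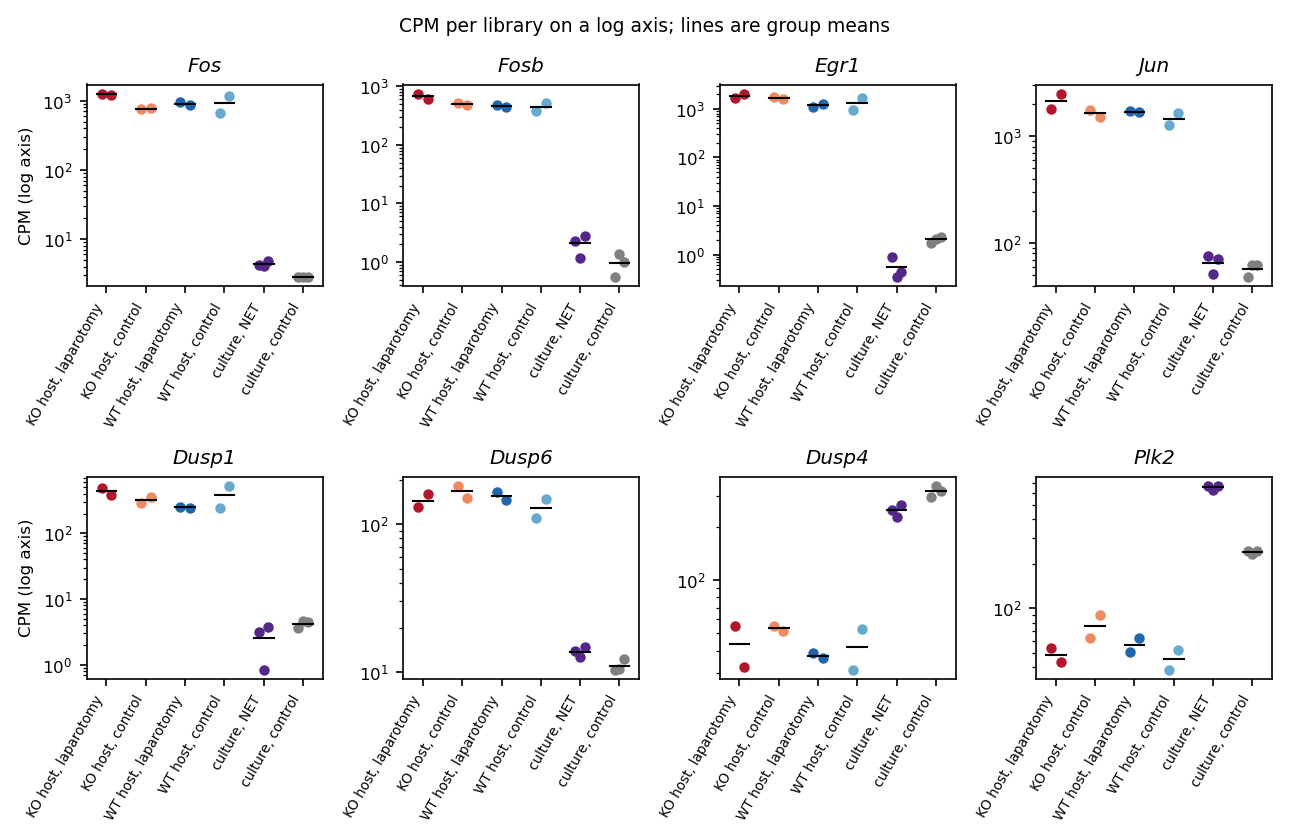
CPM of 8 members in each library on a log axis, by group; points are libraries and lines group means. Fos, Fosb, Egr1, Jun, Dusp1 and Dusp6 lie far higher in every tumour group than in culture, while Dusp4 and Plk2 lie lower.

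The phosphatases differed in direction. Dusp1, a broad nuclear MAPK phosphatase, had 245 CPM in the lowest tumour library, 323 at the median and 525 CPM in the highest, against 3.61 to 4.61 CPM in control cultures. Dusp6 had 110, 150 and 181 CPM, against 10.4 to 12.3 CPM. Dusp4 had 31.2, 45.2 and 55.4 CPM in tumours, against 294 to 342 CPM in control cultures. None of the 3 had overlapping groups, with Dusp1 and Dusp6 high and Dusp4 low in every tumour library. The log2 fold changes were 6.32 ± 0.34, 3.74 ± 0.14 and -2.86 ± 0.15 (adjusted p = 2.38e-08, 3.87e-11 and 3.70e-09, edgeR). Per kilobase of exon, Dusp4 made up 6.05 to 10.6% of the 5 DUSP transcripts in tumours and 93.1 to 94.5% in control cultures, and Dusp1 46.5 to 63.2% in tumours and 0.960 to 1.08% in control cultures. Dusp5 (3.63 ± 0.45) and Dusp2 (2.42 ± 0.37) were higher in tumours at low levels.

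**Figure D4:**
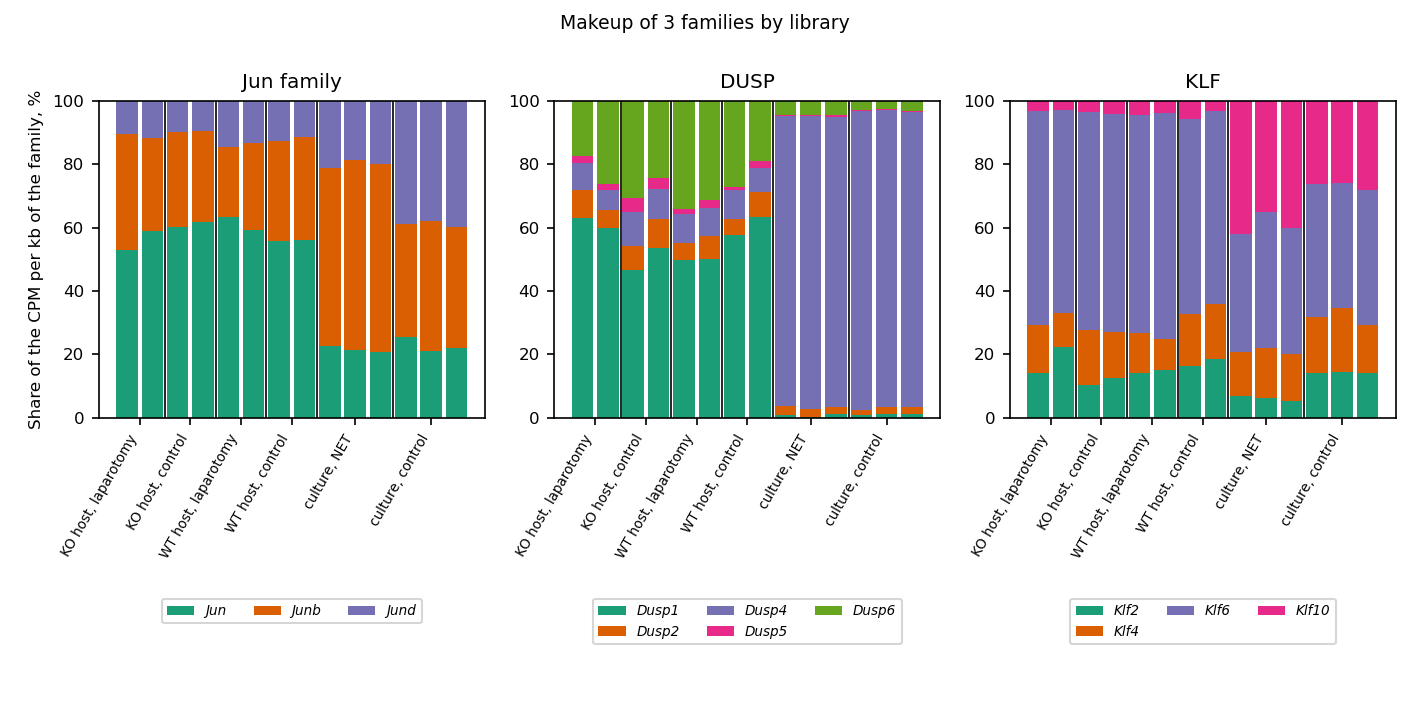
Share of each gene in the summed CPM per kilobase of exon of its family (percent, vertical axis) for the Jun, DUSP and KLF families, 1 bar per library, by group. Dusp4 (purple in the middle panel) fills at least 91.7% of every culture bar and at most 10.6% of every tumour bar, and Jun fills at least 53.0% of every tumour bar in the left panel.

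Among the remaining members, Btg2 (4.23 ± 0.41), Ier2 (2.99 ± 0.14), Klf6 (2.44 ± 0.14), Ier5 (2.42 ± 0.14), Klf2 (1.85 ± 0.21), Spry4 (1.71 ± 0.20), Klf4 (1.45 ± 0.20), Spred1 (0.94 ± 0.09), Spry2 (0.88 ± 0.18) and Etv5 (0.53 ± 0.16) were higher in tumours on the log2 scale. Klf6, a tumour suppressor factor induced by serum and injury, was the most abundant of its family per kilobase there, at 60.7 to 71.4% of the KLF transcripts, against 39.6 to 42.7% in control cultures. The NR4A genes were called higher, Nr4a3 by 1.37 ± 0.36, Nr4a2 by 1.14 ± 0.16 and Nr4a1 by 1.28 ± 0.52, but the Nr4a1 value was 0.74 without WT control replicate 2 (119 CPM), where it was still called, and was not called without any 1 of the 3 control cultures (1.19 to 1.38, adjusted p = 0.0859 to 0.123, edgeR). Etv5 was not called without control culture replicate 1 (0.46), nor Spry1 without control culture replicate 2 (-1.14). Lower in tumours beside Dusp4 were Plk2, with 38.4, 52.9 and 89.8 CPM in tumours, against 234 to 244 CPM in control cultures (-2.11 ± 0.11), Klf10 (-1.08 ± 0.09), Spry1 (-1.31 ± 0.43) and Etv4 (-0.65 ± 0.09). Gadd45b (20.3 to 49.0 CPM in tumours, 34.7 to 41.98 CPM in control cultures), Ier3, Plk3, Spred2 and Srf did not pass. The NET and tumour comparisons share the control cultures. With that in view, the log2 fold changes were 1.44 with NET chromatin and -2.11 in tumours for Plk2, 0.70 and -1.08 for Klf10, 1.65 and -0.11 for Gadd45b, -1.99 and 9.47 for Egr1, and 0.65 and 8.38 for Fos.

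Host RNA was present in the tumour libraries, and in bulk samples more cells of a type and more RNA per cell cannot be told apart. All pan-leukocyte, macrophage and endothelium markers were detected in all 8 libraries, and of 8 fibroblast markers only Tcf21 was at 0, in 1 library, with fibroblast markers summing to 647 to 2865 CPM in tumours and 96.1 to 97.8 CPM in control cultures. The WT laparotomy libraries had the lowest lung epithelium (16.8 and 26.3 CPM) and macrophage sums (108 and 93.5 CPM). Both were close to those of control cultures, at 15.4 to 18.7 CPM and 80.8 to 100 CPM in that order. KO control replicate 1 had nearly the same macrophage sum, at 110 CPM. Against control cultures this group alone gave log2 fold changes of 8.33 for Fos, 8.82 for Fosb, 9.14 for Egr1, 4.88 for Jun, 5.86 for Dusp1 and 3.80 for Dusp6, close to the values over all tumours, whereas Nr4a3 (0.07), Nr4a1 (0.69), Nr4a2 (0.46) and Spry2 (0.53) were not called there. The WT laparotomy libraries still held host markers, with fibroblast sums of 1129 and 772 CPM and neutrophil sums of 186 and 147 CPM, and the part of host RNA in any of these values was not tested.

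The lists of the wider pathway gave unlike counts in the same comparison, and none was tested as a set. Of 23 other immediate early genes, 17 were higher in tumours and 3 lower, with the smallest p for Cyr61 (3.40) and Errfi1, a feedback inhibitor of the EGF receptor (3.15), among the higher and Cited2 (-3.05) and Tiparp (-0.77) among the lower. The pairs named for the other lists were likewise those with the smallest p, not the greatest change. Of 18 serum response factor and MRTF genes, 14 were higher and 2 lower, among them Actb (2.44) and Tpm4 (1.42), with Tpm2 (-0.67) and Mkl2 (-0.31) lower. Of 14 other ERK output genes, 10 were higher and 3 lower, among them Phlda1 (2.38) and Plaur (1.54), with Epha2 (-0.90) and Dusp3 (-0.38) lower. The Ras-ERK cascade itself, which carries the signal, gave 10 higher and 12 lower of 27, near the background, with Mapk3, which encodes ERK1 (-1.20), and Braf (-1.19) lower and Elk3 (1.16) and Rasa1 (0.79) higher. The JNK and p38 list gave 6 higher and 5 lower of 16, with Dusp8 (1.15) and Map3k7 (0.56) higher and Map3k1 (-2.14) and Map2k7 (-0.70) lower.

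The remaining comparisons ask whether laparotomy or the host's PAD4 changed these genes within tumours, with 2 libraries a group. None of the 38 members passed in any of 5 comparisons by edgeR. Calls were rare over all 14615 genes too: 0.0547% for laparotomy in WT hosts, 0.52% for laparotomy in KO hosts, 0.677% for the difference between those effects, 0.116% for KO against WT hosts without laparotomy and 0.0205% with it. At an unadjusted p below 0.05 there were 7, 7, 5, 6 and 11 members in those comparisons, in the same order. Of all genes, 18.8, 15.7, 19.2, 16.3 and 13.4% were below it. DESeq2 called 0, 4, 2, 4 and 7 members, against 1226, 793, 1131, 772 and 536 of 19282 genes. Replicates varied more in tumours than in culture (common biological coefficient of variation 0.278 and 0.0633), which limits what could be called.

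**Figure D5:**
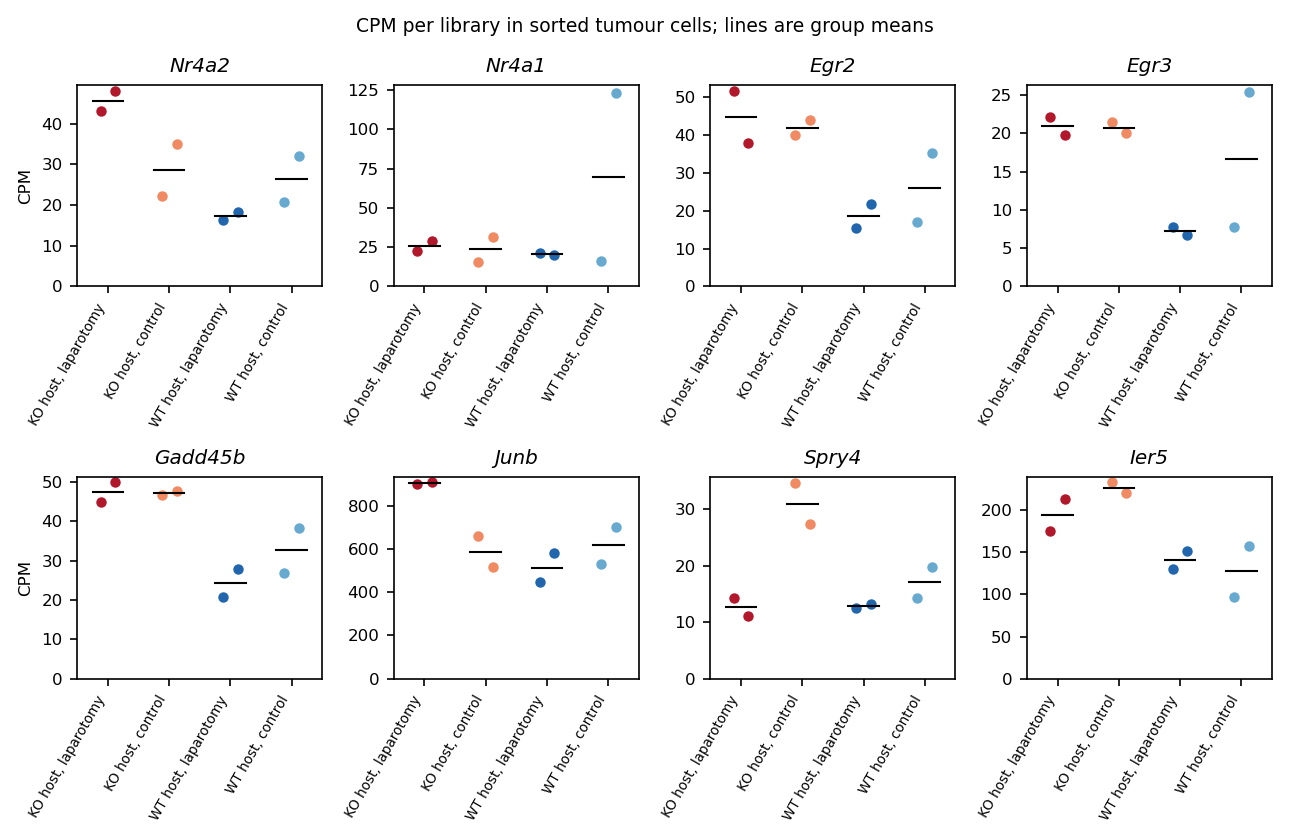
CPM of 8 members in the 8 tumour libraries, by host group (2 libraries each), on linear axes from 0; points are libraries and lines group means. Nr4a2 is highest in the KO laparotomy libraries (43.2 and 48.1 CPM), Spry4 in the KO control libraries, and Nr4a1 stands at 123 CPM in 1 WT control library only.

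The hosts were first compared after laparotomy. Of 38 members, 30 had a log2 fold change above 0 in KO against WT hosts with laparotomy, against 51.1% of all genes, and for 24 members both KO libraries lay above both WT libraries, against 26.2% of all genes. All 11 members at an unadjusted p below 0.05 were higher in KO hosts, where 7.07% of all genes were. Nr4a2, an orphan receptor induced by cyclic AMP and ERK, had 43.2 and 48.1 CPM in KO hosts, against 16.4 and 18.2 CPM in WT hosts. Gadd45b had 44.8 and 49.8 CPM, against 20.8 and 27.9 CPM, and Junb 902 and 911 CPM, against 447 and 582 CPM. Egr3 had 22.1 and 19.8 CPM in KO hosts, against 7.76 and 6.68 CPM, and Egr2 51.6 and 37.96 CPM, against 15.5 and 21.7 CPM. In these 5 genes both KO laparotomy libraries lay above both WT laparotomy libraries. The log2 fold changes were 1.40 ± 0.26 for Nr4a2 (adjusted p = 0.111), 0.96 ± 0.20 for Gadd45b (0.138), 0.82 ± 0.19 for Junb (0.153), 1.27 ± 0.34 for Egr2 (0.200) and 1.54 ± 0.46 for Egr3 (0.237), all edgeR adjusted p, so none was called. The macrophage markers also differed between these groups, at 439 and 262 CPM in KO hosts and 108 and 93.5 CPM in WT hosts. So did lung epithelium markers, at 106 and 97.4 CPM and 16.8 and 26.3 CPM. Fibroblast sums overlapped, at 1046 and 2865 CPM and 1129 and 772 CPM, though 6 of 8 markers were higher in KO hosts with no overlap. The part of host RNA in these differences was not tested.

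Without laparotomy, 29 of 38 members had a log2 fold change above 0 in KO against WT hosts, against 47.8% of all genes, and 11 did so with no overlap between the groups, against 22.2% of all genes. Spry4, a Ras pathway inhibitor induced by ERK, had 34.6 and 27.4 CPM in KO control hosts, against 14.3 and 19.8 CPM in WT control hosts. Spry2 had 63.3 and 37.7 CPM, against 18.5 and 30.9 CPM, Ier5 232 and 220 CPM, against 96.4 and 158 CPM, and Plk2 65.1 and 90.9 CPM, against 39.0 and 54.0 CPM. The KO libraries were the higher ones for each, with changes of 0.86 ± 0.23 (Spry4), 1.02 ± 0.30 (Spry2), 0.83 ± 0.22 (Ier5) and 0.74 ± 0.22 (Plk2) on the log2 scale and adjusted p of 0.164 to 0.196 by edgeR. WT control replicate 1 was the lowest of all 8 tumour libraries for 17 of 38 members, against 10% of all genes. WT control replicate 2 was the highest for 8 of 38 members, near its share of 18.5% of all genes. With replicate 1 as the single WT control library, 5 members were called higher in KO hosts (Ier3, Ier5, Klf6, Btg2 and Dusp5), where 0.145% of all genes were. With replicate 2 as the single one, Nr4a1 was called lower (-2.36, against 0.56 with replicate 1 alone), where 1.11% of all genes were. Host markers moved in this comparison as well. None of the 12 macrophage markers was higher in KO hosts, and 10 of them were lower with no overlap. Their median log2 fold change was -1.63, with medians of -2.07 for pan-leukocyte and -3.04 for neutrophil markers. Pan-leukocyte sums were 129 and 932 CPM in WT control replicates 1 and 2, against 155 and 185 CPM in KO control hosts. Neutrophil sums were 165 and 828 CPM, against 420 and 346 CPM. Both sums thus lay above those of KO hosts in WT control replicate 2 only, and below them in replicate 1. The part of host RNA in these differences was not tested.

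With laparotomy in KO hosts Spry4 was lower, at 14.3 and 11.2 CPM with laparotomy, against 34.6 and 27.4 CPM without. This was the member with the smallest adjusted p of the 5 comparisons (-1.28 ± 0.23, adjusted p = 0.0640, edgeR), and it was not called. Of the AP-1 genes, 3 had higher values after laparotomy at an unadjusted p below 0.05: Fos had 1280.3 and 1229 CPM, against 782 and 793 CPM without (0.67 ± 0.24), Junb 902 and 911 CPM, against 660 and 515 CPM (0.62 ± 0.19), and Jund 188 and 267 CPM, against 156 and 124 CPM (0.70 ± 0.18). For each of these the groups did not overlap, and none passed (adjusted p = 0.236, 0.178 and 0.138, edgeR). Host marker sums differed too, with fibroblast markers at 1046 and 2865 CPM with laparotomy, against 848 and 647 CPM without. Neutrophil (236 and 149 CPM, against 420 and 346 CPM) and endothelium sums (171 and 155 CPM, against 206 and 476 CPM) were lower. The part of host RNA in these differences was not tested. Of the 38 members, 4 were higher and 3 lower at an unadjusted p below 0.05, against 8.24% and 7.45% of all genes. With no overlap, 11 members were higher and 8 lower, against 21.6% and 20.5% of all genes. Over all members, 18 of 38 had a log2 fold change above 0, against 49.3% of all genes.

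In WT hosts, laparotomy was set against a control pair that disagreed, and 13 of 38 members had a log2 fold change above 0, against 49.5% of all genes. Nr4a1 had 21.2 and 19.8 CPM with laparotomy, against 16.0 and 123 CPM without, Btg2 54.2 and 66.3 CPM, against 56.6 and 201 CPM, and Dusp1 261 and 250 CPM, against 249 and 542 CPM. The high value was WT control replicate 2 in all 3, the library with 932 CPM of pan-leukocyte markers; the part of host RNA in it was not tested. The log2 fold changes of Nr4a1 (-1.77), Btg2 (-1.11) and Dusp1 (-0.63) became 0.36, 0.096 and 0.038, in that order, without it, and none of these values was called. The smallest adjusted p was that of Egr3 (7.76 and 6.68 CPM with laparotomy, 7.77 and 25.4 CPM without; -1.22 ± 0.46, adjusted p = 0.216, edgeR). The Egr3 value was -0.10 without replicate 2 and 0.10 with the pan-leukocyte score as a covariate. With replicate 2 as the single WT control library, 6 members were called lower with laparotomy (Egr3, Ier2, Nr4a1, Nr4a3, Btg2 and Dusp1), where 2.78% of all genes were, and with replicate 1 as the single one, Ier3 was called higher (1.27) and Nr4a3 had a log2 fold change of 0.12 in place of -1.53.

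The laparotomy effect in KO hosts minus that in WT hosts had its smallest adjusted p for Nr4a2, at 1.29 ± 0.37 on the log2 scale (adjusted p = 0.131, edgeR). Nr4a2 was higher with laparotomy in KO hosts (43.2 and 48.1 CPM, against 22.2 and 35.0 CPM without) and lower with it in WT hosts (16.4 and 18.2 CPM, against 20.8 and 32.0 CPM without), with no overlap in either host. Of all genes, 21.6% were higher with no overlap in KO hosts, and 28.1% were lower with no overlap in WT hosts. Junb (0.89 ± 0.27) and Ier2 (0.69 ± 0.28) had positive differences and Plk2 (-0.98 ± 0.32) and Spry4 (-0.87 ± 0.32) negative ones, none of which passed. With WT control replicate 2, the library rich in host markers, as the single WT control, 8 members were called (Fos, Egr3, Ier2, Klf2, Nr4a1, Nr4a3, Btg2 and Dusp1), all positive, where 1.56% of all genes were called positive; with replicate 1 as the single one there was no such call, and Nr4a1 (-0.23), Nr4a3 (-0.12) and Btg2 (-0.038) had negative values. The culture and laparotomy comparisons share no library: of the 22 members called with NET chromatin, 10 had the same sign with laparotomy in WT hosts (45.5%, against 55.1% of all 6292 genes called with NET chromatin and tested) and 11 in KO hosts (50%, against 54.5%).

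Among the other pathway genes, few passed within tumours. Hbegf, an EGF receptor ligand, and Myc were called higher in KO than in WT hosts without laparotomy, Hbegf at 106 and 79.2 CPM, against 15.9 and 26.0 CPM (2.13), and Myc at 241 and 207 CPM, against 85.8 and 104 CPM (1.24). In that comparison no gene at all was called with the replicate number as a block, or in a fit of the compared groups alone. For the genes of these lists, the alternatives were not followed gene by gene in any comparison. Hbegf was lower with laparotomy in KO hosts, at 22.8 and 21.7 CPM with it (-2.06), and Etv1, an ETS factor related to Etv4 and Etv5, was higher, at 27.8 and 56.2 CPM, against 4.94 and 4.34 CPM without (3.18); Filip1l of the serum response factor list was lower (-1.27). The difference between hosts in the laparotomy effect was called for Hbegf (-2.59), Myc (-1.40), Epha2 (-2.62) and Etv1 (3.68). For this difference and for laparotomy in KO hosts, calls over all genes depended strongly on single libraries. Whether the calls named here did was not followed. No gene of the 5 lists was called for laparotomy in WT hosts or for KO against WT hosts with laparotomy, and none of the Ras-ERK or JNK and p38 cascade genes was called within tumours.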

How the data were processed

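The deposited values are whole-number counts of reads per gene, made by the authors with Trimmomatic and STAR on mm10, per the submitters' processing notes; software versions, gene annotation and kit are not stated in those notes. The unstranded count column was used, in which a gene and its overlapping or antisense neighbour cannot be separated; the larger strand-specific column served as an alternative and gave the Fosl1 levels. The 4 summary lines per table that name no gene were left out; unmapped reads were 4.00 to 11.5%, multimapping 6.14 to 9.25%, reads with no feature 12.1 to 24.0% and ambiguous reads 1.11 to 1.51% of all reads. Levels are CPM with TMM factors of the culture fit or of the tumour fit, or of all 14 libraries for tumours against culture.

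Tests used edgeR 4.0.16 under R 4.3.3 (filterByExpr, TMM, robust glmQLFit, glmQLFTest, Benjamini-Hochberg over all genes of a fit), a threshold of 0.05 and no covariate. The culture fit had 6 libraries and 4 residual degrees of freedom, the tumour fit 8 and 4, and the fit of all libraries 14 and 8. The SE of a log2 fold change comes from the quasi-likelihood F statistic. Any member could be named; of the other pathway lists, up to 3 genes per direction with the smallest p were named in culture and up to 2 in tumours. The members and lists were chosen with earlier results of these data known. Scripts were tested on simulated data. No 2 libraries held identical counts. Positions and exon lengths are from GENCODE M21 (GRCm38), and promoters from RefSeq (GRCm38.p6). Promoters of Egr1, Spry4, Ier2, Fosl1, Klf10, Egr3, Dusp4 and Etv4 were not analysed here. Replicate numbers were checked as pairs. Sequencing sample numbers in the names of the deposited tables repeat between tumour groups, so run and group cannot be told apart.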

Additional observations from a re-analysis of the deposited data

How the results depend on the processing

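Beside the main 22 members called with NET chromatin, 13 higher and 9 lower, a fit of all 14 libraries called 13 (7 higher, 6 lower); leaving out 1 library gave 18 to 22, DESeq2 16, and RLE factors, library totals and the strand-specific column 23 each. Nr4a2, Nr4a3, Dusp6 and Spry2 were the calls most often lost; Fos and Fosb were lost with DESeq2 and without NET replicate 3, and Junb without NET replicate 1 and with no filter. No called member changed direction. For tumours against control culture (33 called), counts ran from 30 to 35 over all alternatives and 31 to 35 with 1 library left out; the WT laparotomy group alone, chosen after seeing the data, gave 30.

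For laparotomy in WT hosts, where 0 members were called, a fit of all 14 libraries called 1 (Spry1) and leaving out 1 library called 0 to 6. For laparotomy in KO hosts there was 1 call with no filter on low counts (Spry4), 4 with DESeq2, 2 with the pan-leukocyte score as a covariate (Fos, Spry4), 3 with all 14 libraries, and 0 whichever library was left out. For the difference between these effects there were 2 calls with DESeq2 (Junb, Nr4a2), 2 with all 14 libraries (Nr4a2, Plk2) and 0 to 8 with 1 library left out. For KO against WT hosts without laparotomy there were 4 with DESeq2 (Ier5, Plk2, Spry2, Spry4), 3 with all 14 libraries and 0 to 5 with 1 library left out. With laparotomy there were 2 with no filter (Nr4a2, Gadd45b), 7 with DESeq2, 6 with the compared groups alone, 4 with all 14 libraries and 0 whichever library was left out. The cause was not tested. Over all genes, in the order above, the fit of all 14 libraries called 1450, 1132, 1596, 1046 and 712 of 14421. DESeq2 called 1226, 793, 1131, 772 and 536 of 19282 genes. With no filter, 278 of 19282 genes were called for laparotomy in KO hosts and 152 for KO against WT hosts with laparotomy. The leukocyte covariate called 168 of 14615 genes for laparotomy in KO hosts. The compared groups alone gave 220 of 13405 genes for KO against WT hosts with laparotomy. With the leukocyte covariate the sign changed for laparotomy in WT hosts in Egr3 (0.10), Nr4a1 (0.86), Nr4a3 (0.41), Btg2 (0.34), Dusp1 (0.24) and Spry1 (0.38), for the difference between effects in Egr3 (-0.027), Nr4a1 (-0.49), Nr4a3 (-0.34) and Btg2 (-0.20), and for KO against WT hosts without laparotomy in Nr4a1 (0.35). Leaving out 1 library gave, for laparotomy in WT hosts, -2.58 to 0.36 (Nr4a1), -2.24 to 0.12 (Nr4a3), -1.73 to 0.10 (Btg2) and -1.08 to 0.038 (Dusp1), and for the difference -0.23 to 2.70 (Nr4a1), -0.12 to 2.23 (Nr4a3) and -0.038 to 1.78 (Btg2). For KO against WT hosts without laparotomy it gave -2.36 to 0.56 (Nr4a1) and -0.49 to 1.32 (Btg2), and with NET chromatin -0.094 to 0.031 for Spred1. These ranges have their ends in the fits without WT control replicate 1 or 2, except that of Spred1. Srf with NET chromatin was -0.015 with library totals, and Plk3 -0.052 in the WT laparotomy group against culture. Over members at an unadjusted p below 0.05 or called in an alternative, 1665 of 1835 values kept their direction and side of the threshold, 85 became called, 62 lost the call and 23 changed sign.

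To check whether replicate numbers pair the libraries, deviations from group means were correlated. Same-number values were -0.03 to 0.09 over 3 culture pairs, where unlike numbers gave -0.17 to 0.09. Over 12 tumour pairs they were -0.12 to 0.36, the highest between WT control and KO control libraries. With 2 libraries a group, each tumour value recurs with opposite sign for unlike numbers. The tumour check therefore cannot decide whether the numbers are pairs. With the number as a replicate block, 19 members were called with NET chromatin (10 higher, 9 lower), 32 for tumours against culture and 0 in each of the 5 tumour comparisons. The low counts of Egr2, Egr3, Dusp5, Fos and Egr1 in culture limit their fold changes.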
